A study of Mus musculus with 2 samples.

Results

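The genes described here are 10 genes of the integrated stress response: Atf4, Atf5, Ddit3, Chac1, Trib3, Sesn2, Ppp1r15a, Eif2ak3, Asns and Cebpb. They were chosen by name, as the rows of the deposited table whose Ensembl identifiers map to these mouse symbols, and all 10 were found among 18724 rows. The table holds 2 RNA-seq libraries of luminal epithelial cells sorted from the normal prostate of mice aged 18 weeks. The L-GFP+ library came from cells that had kept a histone 2B-GFP label, here called label-retaining, and the L-GFP- library from cells without it, here called non-retaining. A label on histones is diluted as cells divide, so cells that keep it have divided little since labelling. The sources used here do not give the promoter that drives the label, the labelling and chase times, the sort markers, the strain or how many mice went into each library.

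In the integrated stress response, kinases that sense different stresses phosphorylate the translation factor eIF2, which lowers protein synthesis in general while raising translation of a few messages with upstream reading frames, Atf4 among them. ATF4 then binds C/EBP-ATF response elements (CARE), usually with a C/EBP partner, and turns on genes for amino acid supply, redox balance and, when stress lasts, cell death. Secretory cells such as those of the prostate lumen carry a heavy load of protein folding in the endoplasmic reticulum (ER), and the kinase PERK links that load to eIF2. Because ATF4 is controlled largely in translation, the amount of its messenger is not a measure of its activity. ATF4 protein and eIF2 phosphorylation were not measured here.

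A CARE core, TGATGNAA read on either strand, was found in the promoter windows of 3 of the 10 members, Chac1, Asns and Trib3. Each window covers 300 bases, from 250 before to 50 after a RefSeq transcription start on build GRCm38.p6, and all 10 members had a window. The core was present in 1304 of 32851 windows of all genes (3.97%). Counted by gene, it was present in 335 of 11818 measured genes (defined below) with a window (2.83%). All sequences below are 5′ to 3′ on the gene's strand, with the core in capitals. They are shown because these genes are among the 4 members that were higher in the label-retaining library.

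Chac1: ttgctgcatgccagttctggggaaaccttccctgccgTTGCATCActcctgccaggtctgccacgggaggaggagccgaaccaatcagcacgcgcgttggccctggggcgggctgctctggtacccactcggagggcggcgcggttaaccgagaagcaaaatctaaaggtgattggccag
Asns: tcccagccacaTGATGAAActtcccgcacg
Trib3: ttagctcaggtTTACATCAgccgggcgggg

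The Chac1 stretch of 180 bases lies at chr2:119351012-119351191 on the plus strand, overlaps no gene of the GENCODE annotation, and holds the core on the antisense strand, with its first base 193 bases before the start. The Asns stretch lies at chr6:7693214-7693243 on the minus strand, inside an exon of the gene as GENCODE draws it, with the core on the sense strand 23 bases before the RefSeq start. The Trib3 stretch lies at chr2:152344028-152344057 on the minus strand, with the core on the antisense strand beginning at base 15 after the RefSeq start. As GENCODE draws it, the gene reaches only to 152344032, and the core is in none of its exons. A match is a description of the letters and not evidence of binding. For the other members no match says only that these letters are not in this window.

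Both libraries were deep, with 50689229 reads (label-retaining) and 48334265 reads (non-retaining), and 17183 genes had a mean normalised count of at least 10 and are called measured. Luminal markers were present in both libraries, with 5.47% of the reads of label-retaining cells and 1.86% of those of the other library. In the former, 5 of 12 were at least 2-fold higher and 7 were neither higher nor lower. The median log2 ratio of the 12, label-retaining over non-retaining, was 0.88, less than the summed shares differ. Basal markers made up 0.0397% and 0.722% of reads, with 9 of 10 lower in the label-retaining library. All 10 T and NK cell markers were lower there, at 0.000249% against 0.0236% of reads, with Gzma at 0 reads. All 6 measured seminal vesicle secretion genes were higher there, at 0.166% against 0.00175% of reads, with Svs6 at 0 reads in the non-retaining library. All 8 smooth muscle markers (0.00426% against 0.0561% of reads) and 6 of 8 endothelial markers (0.00148% against 0.00627%) were lower in label-retaining cells. Fibroblast markers took 0.0369% against 0.210% of reads, with 3 of 8 higher and 3 lower. Macrophage markers took 0.00326% and 0.00336%, with 3 of 8 higher. The libraries thus differ in more than the label, and the part of these other transcripts in the differences below was not tested. In sorted bulk samples, fewer cells of a type and less RNA per cell cannot be told apart.

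Each group is a single library, so no difference has a replicate check and none was tested: the values compare these libraries, not the conditions. Ratios are log2 ratios of normalised counts, label-retaining over non-retaining, with 0.5 added to each count. Their 95% intervals cover counting error only. A gene is called higher or lower where the log2 ratio is at least 1 or at most -1 and the interval does not include 0.

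Of the 10 members, all measured, 4 were higher in label-retaining cells (Chac1, Eif2ak3, Asns and Trib3), 1 was lower (Cebpb) and 5 were neither. The background over all measured genes was 14.5% higher and 19.4% lower (2483 and 3330 genes). A further scaling sets the luminal keratins Krt8 and Krt18 equal between the libraries (the keratin scaling), which shifts the log2 ratios by -0.76. Of all 17183 measured genes, 923 were then higher and 6984 lower, with a median log2 ratio of -0.77. Of the members, 3 were then higher and 2 lower. Under the deposited scaling the members' median log2 ratio was 0.84, against -0.01 over all measured genes, and 8 of 10 lay above 0. The members did not move as a block: their ratios spanned 4.54 log2 units, from -1.65 for Cebpb to 2.90 for Chac1. The lowest count behind these values was 345 reads, for Trib3 in the non-retaining library.

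**Figure D1:**
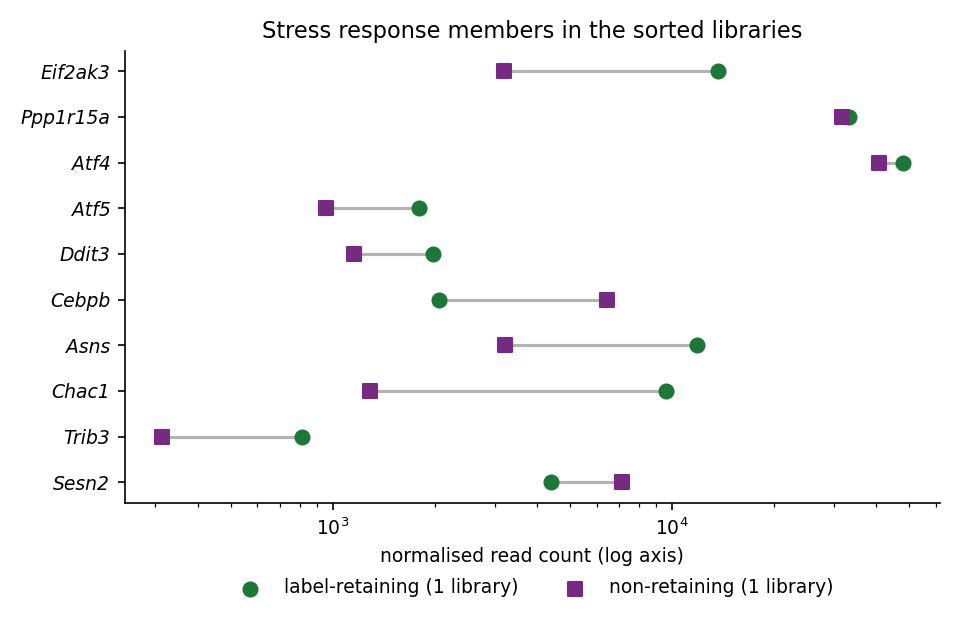
Normalised read count (log axis) of each member in the label-retaining and the non-retaining library, 1 point per library and gene. The points of Atf4 and Ppp1r15a nearly coincide, while those of Chac1, Eif2ak3 and Asns lie far apart with the label-retaining library higher, and those of Cebpb lie apart in the other direction.

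The sensor end of the pathway is represented by Eif2ak3, which encodes PERK, the eIF2 kinase of the ER membrane (ENSMUSG00000031668.13, chromosome 6, 70844515 to 70905245, plus strand, as are all gene positions on mm10). It had 13645 normalised counts in label-retaining and 3208 in non-retaining cells. The label-retaining library was 4.25-fold higher, a log2 ratio of 2.09 (95% counting interval 2.03 to 2.14). That ratio exceeded those of 96.2% of measured genes. The other eIF2 kinases did not share it: Eif2ak1 (HRI, the heme-regulated kinase) had a log2 ratio of 0.47, Eif2ak2 (PKR, which binds double-stranded RNA) 0.57 and Eif2ak4 (GCN2, which senses uncharged tRNA) -0.18. In reads per kilobase of exon, scaled to the depth of the library (RPKM), Eif2ak3 made up 72.0% of the summed level of the 4 kinases in label-retaining cells and 41.1% in the others. Within each library, there were 556 reads of Eif2ak3 per 100 reads of Eif2ak4 in label-retaining cells and 115 in non-retaining cells. These ratios within a library do not depend on how the libraries are scaled to each other. The other ER stress sensors were also higher, Atf6 with a log2 ratio of 1.62 and Ern1, which encodes IRE1, with 1.27. Neither call held under the keratin scaling, which gave 0.86 for Atf6 and 0.51 for Ern1, while Eif2ak3 was still higher at 1.33. Eif2ak3 shares 485 exon bases with Gm43292, a gene model on the opposite strand with no row in the table.

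Ppp1r15a encodes GADD34, the stress-induced subunit that brings protein phosphatase 1 to eIF2 and so reverses the kinases (ENSMUSG00000040435.10, chromosome 7, 45522916 to 45526268, minus strand). Its normalised counts were close, 33343 in label-retaining and 31625 in non-retaining cells, with a log2 ratio of 0.08 (0.05 to 0.10). Its constitutive counterpart Ppp1r15b had 13071 and 9410, with a log2 ratio of 0.47. Ppp1r15a was the second most abundant member per exon length in both libraries. The small difference changes sign with the scaling: it was -0.13 by total reads and -0.69 by the keratin scaling. Of the 14 measured genes of the list of eIF2 kinases, their regulators and phosphatases, 1 was higher (Eif2ak3) and 1 lower (Ppp1cc, a catalytic subunit of protein phosphatase 1, log2 ratio -1.07), with a median of 0.21. The Ppp1cc value was -0.996, just short of the rule, by total reads without the most read genes. Among 11 subunits of eIF2, its exchange factor eIF2B and related initiation factors, only Eif2b4 was called, at 1.07, and that call was lost by total reads (0.87) and by the keratin scaling (0.31). Eif5, the most read gene of that list, had 0.02.

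Atf4, the central transcription factor of the response, was the most abundant member in both libraries (ENSMUSG00000042406.7, chromosome 15, 80255184 to 80257541, plus strand). It had 47844 normalised counts in label-retaining and 40871 in non-retaining cells, a log2 ratio of 0.23 (0.21 to 0.25). The counting interval excludes 0, but the difference is far below the 2-fold rule, and its sign depends on scaling: it was 0.03 by total reads and -0.54 by the keratin scaling. Its messenger therefore did not share the difference seen in Chac1, Eif2ak3 and Asns.

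Atf5, a relative of Atf4 whose translation is raised in the same manner (ENSMUSG00000038539.13, chromosome 7, 44812256 to 44816658, minus strand), had 1797 normalised counts in label-retaining and 955 in non-retaining cells. The log2 ratio was 0.91 (0.80 to 1.02), just below the 2-fold rule. Ddit3, which encodes CHOP, a factor tied to cell death under prolonged ER stress (ENSMUSG00000025408.14, chromosome 10, 127290774 to 127296288, plus strand), had 1978 and 1153, with a log2 ratio of 0.78 (0.68 to 0.88). Neither passed 2-fold, and both were near 0 under the keratin scaling, at 0.15 for Atf5 and 0.02 for Ddit3. Atf5 shares 82 exon bases with Il4i1 on the opposite strand, which had 30 and 59 reads. It also shares 82 with Nup62 on the opposite strand, which has no row in the table. Ddit3 shares 105 exon bases with a second gene entry of the same name on the same strand, which has no row in the table. It also shares 68 exon bases with Mars on the opposite strand, which had a similar log2 ratio of 0.86. Whether the authors' counting used strand is not given in the sources used here, so reads from such overlaps may not be told apart.

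Cebpb encodes a C/EBP factor that can pair with ATF4 and that also serves inflammatory and differentiation programs (ENSMUSG00000056501.3, chromosome 2, 167688915 to 167690418, plus strand). It was the one member lower in label-retaining cells, with 2052 normalised counts against 6434, 3.14-fold lower and a log2 ratio of -1.65 (-1.72 to -1.58). Its relatives Cebpa and Cebpd were lower too, with 644 against 6042 and 1805 against 3956 normalised counts and log2 ratios of -3.23 and -1.13. Cebpg, another C/EBP partner of ATF4, had a log2 ratio of -0.21 and was neither. The share of Cebpb in the summed level of these 4 genes per exon length was nearly the same in both libraries, 52.0% and 51.9%. There were 96.4 reads of Ddit3 per 100 of Cebpb in label-retaining cells against 17.9 in non-retaining cells. The larger part of this difference lies in Cebpb (-1.65), as Ddit3 itself had a log2 ratio of 0.78. Cebpb overlaps the antisense gene Tmem189 over 312 bases, 20.7% of its exon length. Tmem189 had only 629 and 1205 reads, against 2056 and 7073 for Cebpb. Of 19 immediate early genes, 7 were lower in label-retaining cells and none higher, with a median log2 ratio of -0.68. Under the keratin scaling 15 were lower, beside 6984 of all 17183 measured genes. The part of immune, basal or immediate early transcripts in the lower Cebpb was not tested.

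Among 21 measured ATF, C/EBP and related factors, 2 were higher (Atf6 at 1.62 and Atf6b at 1.14) and 5 lower. By total reads Atf6b was no longer called (0.93). Under the keratin scaling none was higher and 9 were lower, beside 923 higher and 6984 lower of all 17183 measured genes. The lower ones besides the C/EBP genes were Nfe2l2, which encodes the oxidative stress regulator NRF2, at -2.20, and Batf, a factor best known from lymphocytes, at -2.84 on 11 and 90 reads. The most read gene of this list was Atf3, a stress-induced target of ATF4, with 95612 and 93046 normalised counts and a log2 ratio of 0.04.

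Chac1 encodes a gamma-glutamylcyclotransferase that breaks down glutathione, and it is a target of the ATF4 and CHOP branch (ENSMUSG00000027313.3, chromosome 2, 119351229 to 119354381, plus strand). It had 9599 normalised counts in label-retaining and 1289 in non-retaining cells, 7.44-fold higher, with a log2 ratio of 2.90 (2.82 to 2.98). The ratio exceeded those of 98.6% of measured genes. There were 20.1 reads of Chac1 per 100 of Atf4 in label-retaining cells and 3.15 in non-retaining cells. Set against the ER chaperone Hspa5 in the same way, the log2 difference was 1.49 (1.41 to 1.58), so Chac1 differed more than Hspa5 did. Against Tgm4, a secreted transglutaminase of luminal cells with a log2 ratio of 2.43 of its own, it was 0.47. Chac2, its only paralog in the table, had 76 and 60 reads and a log2 ratio of 0.47, with an interval of -0.03 to 0.99 that includes 0.

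Asns encodes asparagine synthetase, a classical ATF4 target (ENSMUSG00000029752.11, chromosome 6, 7675169 to 7693254, minus strand). It had 11843 normalised counts in label-retaining and 3227 in non-retaining cells, 3.67-fold higher, with a log2 ratio of 1.88 (1.82 to 1.93). Trib3 encodes a pseudokinase that feeds back on ATF4 and CHOP (ENSMUSG00000032715.9, chromosome 2, 152337422 to 152344032, minus strand). It was the least abundant member per exon length in both libraries, with 814 and 314 normalised counts, 2.59-fold higher and a log2 ratio of 1.37 (1.19 to 1.56). Its relatives did not follow it: Trib1 had -0.13 and Trib2 was lower, at -1.52 on 47 and 149 reads. Under the keratin scaling Trib3 was no longer called, at 0.61, while Chac1, Eif2ak3 and Asns still were. Relative to Hspa5, which had a log2 ratio of 1.40 of its own, Trib3 did not differ detectably, with a log2 difference of -0.03 (-0.21 to 0.15). For Asns and Eif2ak3 the log2 differences from Hspa5 were 0.47 (0.42 to 0.53) and 0.69 (0.63 to 0.74).

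Sesn2 encodes sestrin 2, a stress-induced inhibitor of mTORC1 that ATF4, p53 and NRF2 can all turn on (ENSMUSG00000028893.8, chromosome 4, 132492032 to 132510501, minus strand). Its normalised counts were 4389 in label-retaining and 7124 in non-retaining cells. Unlike Chac1, Asns and Trib3 it was below 0, with a log2 ratio of -0.70 (-0.75 to -0.65). It was not called under the deposited scaling and was lower, at -1.46, under the keratin scaling. Sesn1, a p53-responsive sestrin, was lower at -2.70, and Sesn3 had 0.03. Chac1, Asns and Trib3 were thus higher, and Sesn2 lay on the other side of 0.

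**Figure D2:**
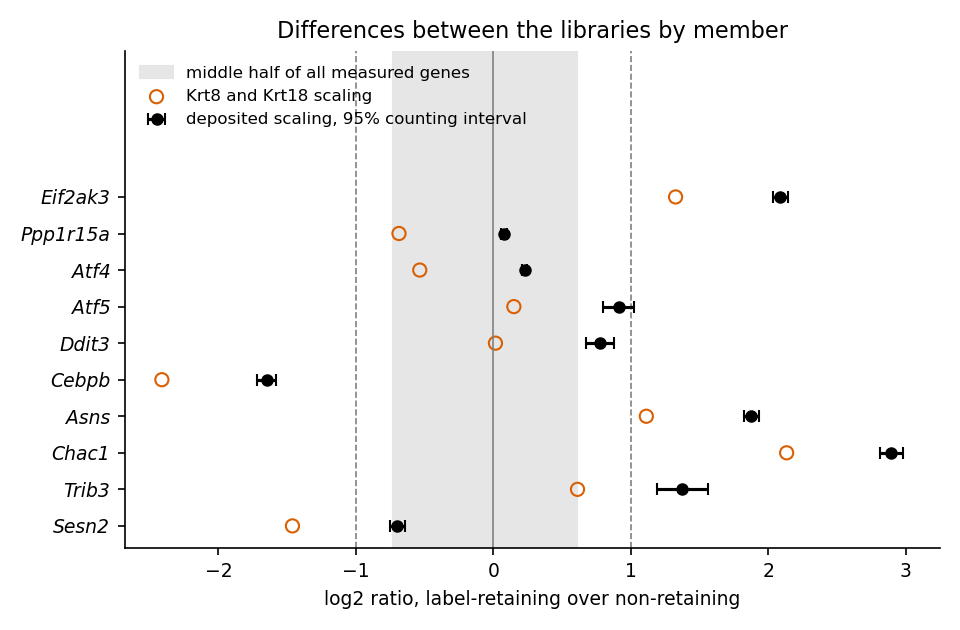
Log2 ratio, label-retaining over non-retaining, of each member with its 95% counting interval, beside a line at 0 and the 2-fold lines. The grey band runs from the lower to the upper quartile of all measured genes (-0.73 to 0.61). Open circles show the keratin scaling. Under the deposited scaling Chac1 (2.90), Eif2ak3 (2.09), Asns (1.88) and Trib3 (1.37) lie beyond the upper 2-fold line and Cebpb (-1.65) beyond the lower one.

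RPKM values put the members in an order within each library. In label-retaining cells Atf4 came first at 401, followed by Ppp1r15a at 224, Chac1 at 116, Asns at 85.6, Eif2ak3 at 44.8, Cebpb at 27.0, Sesn2 at 24.97, Ddit3 at 22.8, Atf5 at 17.8 and Trib3 at 7.58. In non-retaining cells the order was Atf4 at 394, Ppp1r15a at 245, Cebpb at 97.3, Sesn2 at 46.6, Asns at 26.8, Chac1 at 17.9, Ddit3 at 15.3, Eif2ak3 at 12.1, Atf5 at 10.9 and Trib3 at 3.36. No neighbours overlapped in their counting intervals. The first 2 and last 2 places were the same in both libraries, while Chac1 stood in place 6 in non-retaining and place 3 in label-retaining cells, and Cebpb the reverse.

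**Figure D3:**
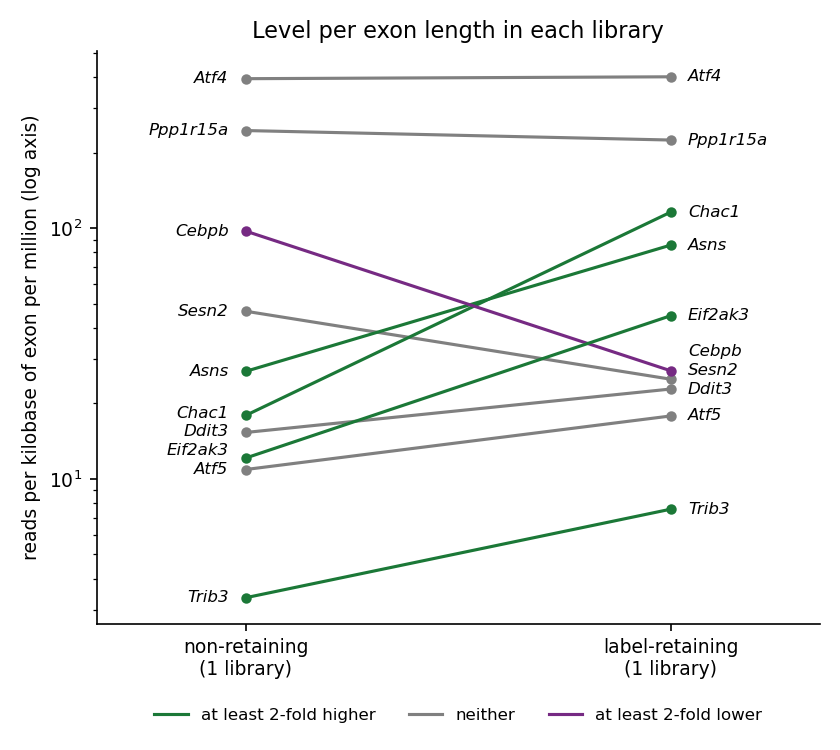
Level of each member in reads per kilobase of exon scaled to library depth, RPKM (log axis), in the non-retaining and label-retaining library, joined by a line per gene. Lines for Chac1, Eif2ak3 and Asns climb steeply and cross that of Cebpb, which descends.

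The wider program was examined through lists of related genes. Of 17 serine, one-carbon, proline and transsulfuration genes, which supply amino acids and folate-bound carbon, 6 were higher and none lower. Their median log2 ratio was 0.69. Under the keratin scaling 3 were higher and 3 lower, beside 923 higher and 6984 lower of all 17183 measured genes. The 4 highest by the lower end of the interval were Aldh1l2, a mitochondrial folate enzyme, at 2.60, Gpt2, a mitochondrial alanine transaminase, at 1.94, Asns itself at 1.88 and Pycr1, of proline synthesis, at 1.67. Phgdh, the first enzyme of serine synthesis, lay just under the rule at 0.995 and is named after its value was seen. Of 21 aminoacyl-tRNA synthetase and tRNA export genes, which charge tRNAs, 6 were higher and none lower, and all 21 lay above 0, with a median of 0.58. Nars, the most read gene of the group, had 0.73. Wars (1.67), Gars (1.36), Qars (1.30) and Sars (1.09) led this group by the lower end of the interval. Under the keratin scaling its median was -0.18 and none was called, beside a median of -0.77 over all measured genes. The sign of its median thus rests on the scaling.

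Of 12 amino acid transporters, Slc38a1 (2.07) and Slc1a4 (1.52), carriers of neutral amino acids, were higher. Slc43a1 was lower, at -4.57 on 17 and 455 reads. Slc38a2, the most read transporter of the list and a known ATF4 target, had -0.86. The median was 0.36.

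Of 21 other reported ATF4 and CHOP targets, 4 were higher and 6 lower. Their median was 0.04. The higher ones were Herpud1 (2.13), of ER-associated degradation, Stc2 (1.49), a secreted glycoprotein, Sqstm1 (1.36), an autophagy receptor, and Nupr1 (1.25), a stress-induced nuclear protein. The lower ones included Soat2 (-3.52, on 4 and 56 reads), Tnfrsf10b (-2.23), a death receptor, Vldlr (-1.87), a lipoprotein receptor, and Bcl2l11 (-1.36), which encodes the cell death activator BIM. In contrast to these mixed lists, 21 of 25 genes of the IRE1, XBP1 and ATF6 arms of the unfolded protein response were higher and none lower, with a median of 1.37. The 4 highest by the lower end of the interval were Syvn1 (2.16), Sec24d (1.92), Creld2 (1.81) and Sdf2l1 (1.81). The 12 mitochondrial unfolded protein response genes had a median of -0.20, and Hspa9, the most read of them, had -0.37. Across all pathway lists, 39 of 147 measured genes that are not members were higher (26.5%) and 15 were lower (10.2%), beside 14.5% and 19.4% of all measured genes. Their median was 0.47. Without the IRE1, XBP1 and ATF6 list, 18 of 122 were higher (14.8%), close to the share of all genes, and 15 were lower (12.3%), with a median of 0.28. Under the keratin scaling 5 of the 25 IRE1, XBP1 and ATF6 genes were higher and their median was 0.61. The medians of the serine list (-0.07), the transporters (-0.41) and the other targets (-0.72) then lay below 0. That scaling lowers all ratios alike, and the median over all measured genes was -0.77, below each of these list medians. Of the 12 transporters 1 was then higher and 3 lower, and of the 21 other targets 1 was higher and 9 lower. The background was 923 higher and 6984 lower of all 17183 measured genes. The lists were assembled from general knowledge of the pathway with earlier results of these data known, and these counts are descriptions, not tests.

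**Figure D4:**
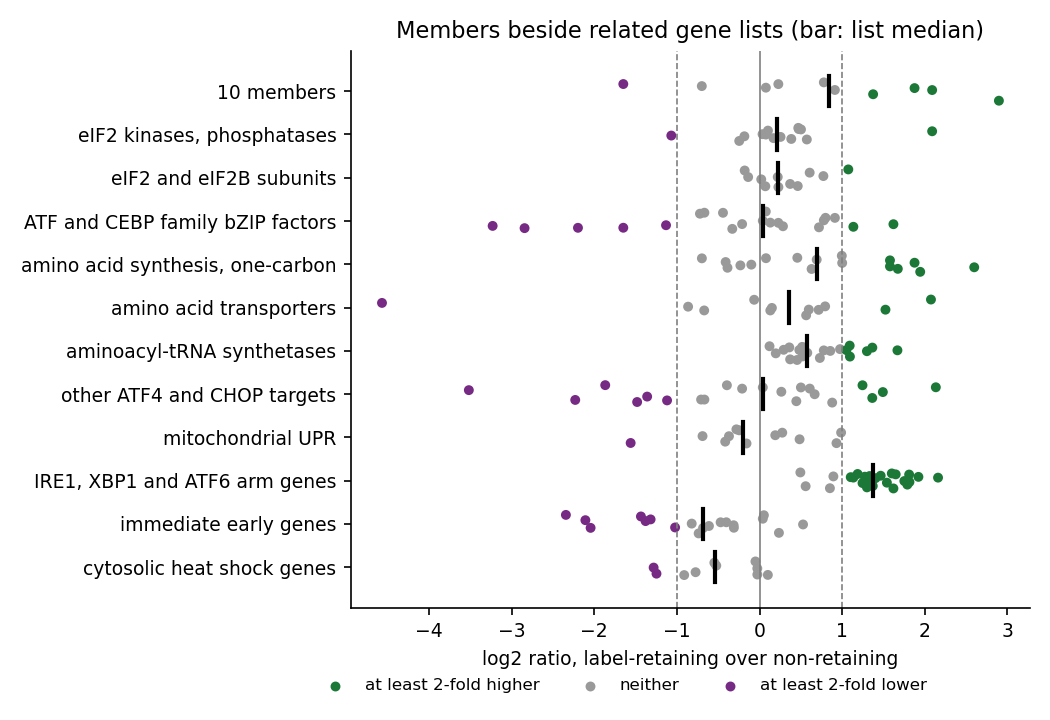
Log2 ratio, label-retaining over non-retaining, of each measured gene in the members' list and the related lists, with a bar at each list's median. The IRE1, XBP1 and ATF6 list sits farthest to the right, with a median of 1.37, against 0.84 for the members and 0.04 for other ATF4 and CHOP targets.

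The CARE core was also counted across genes. Of 50 target, transporter, biosynthesis and synthetase genes other than members that had a window, 15 held the core (30%). Of those 15, 7 were higher and 1 was lower; their median was 0.78. Of the 35 without a match, 5 were higher and 3 were lower, with a median of 0.36. All of these counts are under the deposited scaling. Under the keratin scaling these genes with the core were no longer called: Gars (0.60), Got1 (0.82), Nupr1 (0.48), Pck2 (0.82), Pycr1 (0.91) and Slc1a4 (0.76). Herpud1 was still higher. The genes without a match were not recounted as a set under that scaling. None of the 21 synthetase and tRNA export genes was then called, with or without the core. Over all 11818 measured genes with a window, the 335 with the core were split, 76 higher and 70 lower, or 22.7% and 20.9%, with a median of 0.13. Of the 11483 genes without a match, 14.3% were higher and 18.6% were lower; the median was 0.02. The share of higher genes thus differed more between these sets than the share of lower genes; none of this was tested. Vldlr holds the same core as Chac1 and was lower. Its stretch lies at chr19:27216809-27216838 on the plus strand, inside an exon of the gene, and that of Herpud1, a higher gene with the core, at chr8:94386306-94386335 on the plus strand.

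Vldlr: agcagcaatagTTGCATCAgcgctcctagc
Herpud1: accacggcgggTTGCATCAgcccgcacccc

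**Figure D5:**
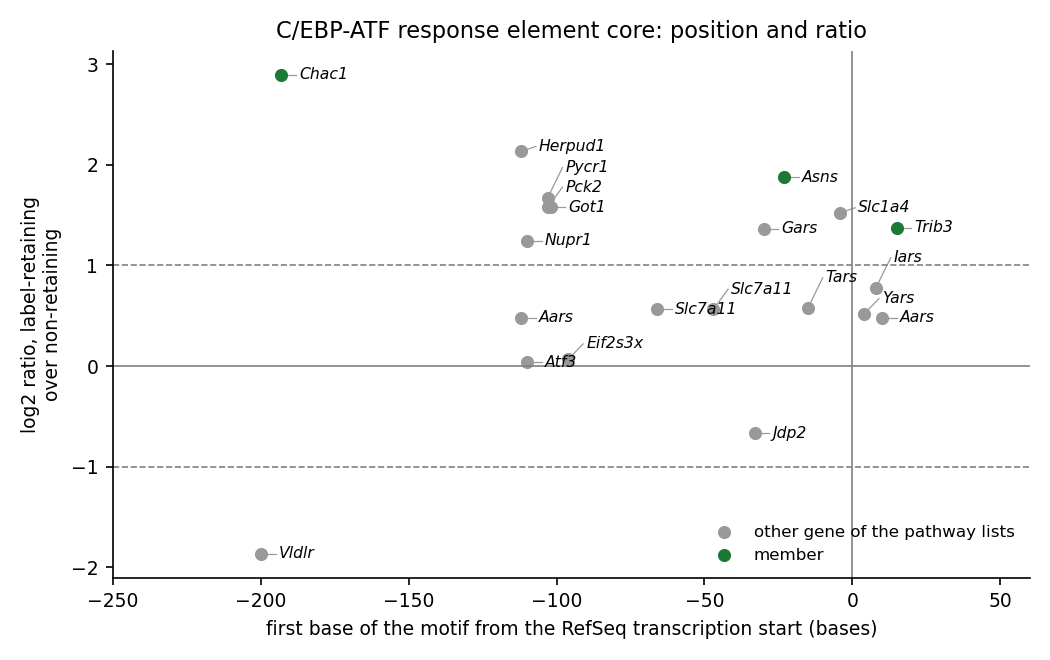
Log2 ratio, label-retaining over non-retaining, against the position of the CARE core from the RefSeq transcription start in bases, 1 point per match, for the 3 members and 16 other genes that hold it. Matches lie on both sides of the start, and ratios at similar positions range from the higher to the lower side.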

How the data were processed

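The data are a single deposited table of gene-level values for 2 libraries of mouse prostate luminal cells, L-GFP+ and L-GFP-, made from RNA extracted with the RNeasy mini kit. Per the labels' protocols the libraries are of the stranded TruSeq type for total RNA. Per the submitters' processing notes, which give no roles, the build was mm10 and the tools were DESeq 1.16.0, HTSeq 0.6.0, Bowtie2 2.1.0 and TopHat2 2.0.10, and CASAVA 1.8.2. The deposited values are a signal: read counts divided by a size factor per library. Multiplying by 1.002 (label-retaining) and 1.10 (non-retaining) gave whole reads for 100% of values within 0.01 reads, so reads were recovered. No column went unused.

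Symbols, coordinates and exon lengths came from GENCODE M21 (build mm10, GRCm38); 18634 of 18724 rows had a symbol. Ratios used a pseudocount of 0.5 normalised counts and exact Clopper-Pearson 95% intervals. With 1 library per group no count model was fitted; edgeR 4.0.16 gave only the TMM scaling. Python 3.11.15, pandas 2.3.3, SciPy 1.17.1 and R 4.3.3 were used, and the ratio and interval steps were tested on simulated data. Alternatives were 5 scalings, a pseudocount of 5, 99% intervals, a 1.5-fold rule and other minimum counts. All members are named; from each pathway list, up to 4 called genes per direction by the interval end nearest 0, the most read gene and every paralog of a member. Members and lists were chosen with earlier results of these data known. A result for a gene of the mitochondrial list is not reported here.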

Additional observations from a re-analysis of the deposited data

How the results depend on the processing

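Recomputed median-of-ratios factors, TMM factors, total reads with or without the most read genes, a pseudocount of 5, 99% intervals and other minimum counts each gave 4 members higher and 1 lower, with medians from 0.64 to 0.92. Setting Krt8 and Krt18 equal shifts the ratios by -0.76 and total reads by -0.20 on the log2 scale. With the keratins equal, 3 members were higher and 2 lower (Sesn2 joined Cebpb), with a median of 0.08, and 923 genes were higher and 6984 lower, against 2483 and 3330. The median over all measured genes was then -0.77. List medians were -0.55 (eIF2 kinases and phosphatases), -0.53 (eIF2 and eIF2B) and -0.72 (ATF, C/EBP and related factors). They were -0.18 (synthetases), -0.96 (mitochondrial unfolded protein response) and 0.61 (IRE1, XBP1 and ATF6). By total reads the synthetases had 0.38, the IRE1, XBP1 and ATF6 list 1.17 and the other ATF4 and CHOP targets -0.16. The median over all measured genes was then -0.21. With a 1.5-fold rule 6 members were higher and 2 lower, beside 4151 higher and 4608 lower of all 17183 measured genes. The sign of Atf4 and Ppp1r15a depends on the scaling. Chac1, Eif2ak3 and Asns were higher and Cebpb lower under each of the 5 scalings. Whether luminal keratins are the same per cell in both populations was not tested. No paired analysis was possible because each group is a single library, which leaves no spread within pairs.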
